A study of Mus musculus with 15 samples.

Results

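Genes of the unfolded protein response of the endoplasmic reticulum (ER) and of the integrated stress response were followed in 3T3-L1 cells, a mouse fibroblast line that becomes adipocytes under hormonal induction. The 38 genes were picked by symbol out of 25700 Ensembl identifiers. By role they were 4 sensors and signal transducers, 11 genes on the ATF4 side, 14 ER chaperones and folding factors, 7 genes of ER-associated degradation and 2 secreted hormones. Of these, 37 were among the 12279 genes that passed the filter on low counts. Derl3, a derlin of the retrotranslocation channel, had 0 counts in all 15 libraries, which allows a level of up to 0.102 to 0.292 counts per 1e6 (CPM) depending on the library (3 counts; counting error only). The study sequenced RNA of cells with altered MIGA2 (mitoguardin 2), an outer mitochondrial membrane protein that tethers mitochondria to the ER and to lipid droplets. There were 5 groups of 3 libraries: cells overexpressing MIGA2-GFP at day 6, MIGA2-depleted cells (MIGA2-KO) at day 6, MIGA2-KO cells at day 0, wild-type (WT) cells at day 6 and WT cells at day 0. The day 6 groups had been through the medium with dexamethasone, IBMX and insulin, which was added at day 0 to confluent cells. The labels name neither the promoter of MIGA2-GFP nor the way MIGA2 was depleted nor how many clones were used, and no MIGA2-GFP library of day 0 was among the samples.

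As background, misfolded protein in the ER lumen draws the chaperone BiP away from sensors in the ER membrane. IRE1 then splices the Xbp1 message so that it encodes an active transcription factor, ATF6 is cut free in the Golgi, and PERK phosphorylates eIF2α, which slows translation in general but favours translation of ATF4. XBP1 and ATF6 drive genes for chaperones and for ER-associated degradation, in which misfolded glycoproteins are drawn back to the cytosol and ubiquitinated. ATF4 drives genes for amino acid supply, redox balance and feedback on eIF2α, and can also be raised by kinases that sense other stresses, mitochondrial ones included. In adipocytes, whose ER makes secreted proteins and lipid, XBP1 is known to be needed for differentiation. The gene counts used here do not separate spliced from unspliced Xbp1 and carry no information on phosphorylation or translation.

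Library totals ranged from 10748668 to 26003871 counts. Miga2 itself had 166, 155 and 158 CPM in libraries labelled MIGA2-GFP day 6 and 926, 74.5 and 70 CPM in those labelled MIGA2-KO day 6 (replicates 1, 2 and 3, in this order here and below). It had 17.2, 21.4 and 22.6 CPM in MIGA2-KO day 0, 145, 159.5 and 182 CPM in WT day 6 and 15.6, 17.8 and 13.6 CPM in WT day 0 libraries. The library labelled MIGA2-KO day 6 replicate 1 therefore had more Miga2 than any other, against its label. For the comparisons that use it, counts of called genes are also given without it. So are the values of single genes that lose or gain a call or move by much. All 15 libraries were fitted together, so this library also enters the spread, SE and p of the comparisons without its group. Those comparisons are not given without this library alone. Libraries labelled MIGA2-GFP did not exceed WT day 6 in Miga2 (log2 fold change -0.02, adjusted p = 0.985). At day 0 Miga2 was not called lower in MIGA2-KO than in WT (log2 fold change 0.38, adjusted p = 0.708), and groups are named by their labels throughout. WT day 0 replicate 1, WT day 6 replicate 1 and MIGA2-KO day 6 replicate 1 stood apart from the other libraries of their groups, and counts of called genes are also given without these 3. The summed level of 9 adipocyte markers was 20040 to 21760 CPM in MIGA2-GFP day 6, 6024 to 9557 CPM in MIGA2-KO day 6 and 30240 to 43730 CPM in WT day 6 libraries. At day 0 it was 52.9 to 54.5 CPM in MIGA2-KO and 51.2 to 72.0 CPM in WT libraries. The 7 preadipocyte markers summed to 2856 to 3061, 4449 to 8758 and 2175 to 2493 CPM in the same 3 day 6 groups, and to 9064 to 10650 CPM in MIGA2-KO and 9123 to 13010 CPM in WT libraries of day 0. Markers of other cell types were present at lower levels. The 7 macrophage markers, mostly Lyz2 and Cd14, summed to 33.05 to 33.7 CPM in MIGA2-GFP day 6, 34.0 to 43.1 CPM in MIGA2-KO day 6 and 23.4 to 33 CPM in WT day 6 libraries, and to 92.0 to 94.3 CPM in MIGA2-KO and 87.3 to 123 CPM in WT libraries of day 0. The defining macrophage marker Ptprc had 0 counts in every library. The 4 epithelial markers summed to 3.74 to 4.27, 0.697 to 1.65 and 6.06 to 9.94 CPM in the same 3 day 6 groups and to at most 0.373 CPM at day 0, all of it from Krt8 and Krt18, since Epcam and Cdh1 had 0 counts in every library. The 5 muscle markers summed to 49.3 to 55.3, 15.7 to 54.3 and 22.2 to 37.0 CPM at day 6, with Myod1 at 0 counts throughout. At day 0 they summed to between 9.47 and 18.1 CPM. Within MIGA2-KO day 6, Ckm ranged from 0 to 16.2 CPM and Acta1 from 0.412 to 22.6 CPM. In MIGA2-GFP day 6 most of the sum was Des, with a mean of 51.3 CPM. The 5 endothelial markers summed to at most 1.22 CPM. The part of these other cell type markers in the results was not tested. In bulk RNA, fewer cells of a type and less RNA per cell cannot be told apart. Since the labels do not say that libraries came from separate cultures, the p-values measure the spread between these libraries only.

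The promoters are shown because the roles differ in the letters they carry around the transcription start. In the RefSeq promoter table (GRCm38.p6, from 250 bases before to 50 after the start, 32851 windows), 33 of the 38 genes had a window. The ER stress response element ERSE (CCAAT and CCACG with 9 bases of any kind between them, searched on both strands, as were all motifs) is bound by ATF6 with NF-Y and by XBP1. It occurred in 39 of all windows (0.119%) and in those of 9 of the genes, of which 7 were among the 12 chaperone genes with a window and the other two were Syvn1 and Derl3. ERSE-II (ATTGG and CCACG with 1 base between them) occurred in 12 of all windows (0.0365%), including those of Herpud1 and Dnajb11. The C/EBP-ATF response element CARE (TGATGNAA), bound by ATF4 with C/EBP partners, occurred in 1304 windows (3.97%), including those of Atf3, Chac1, Trib3, Asns, Fgf21 and Herpud1. The UPRE letters TGACGTGG were in 0.676% of all windows and in that of no member, and the CRE letters TGACGTCA were in 1.79% and in that of Ppp1r15a. Matches of different motifs did not overlap in the windows of these genes, and a match of letters is a description, not a binding site. The 250 bases before the start of Hspa5 (chr2:34771840-34772089, plus strand), Herpud1 (chr8:94386179-94386428, plus strand) and Chac1 (chr2:119350992-119351241, plus strand) follow, 5′ to 3′, with the matching letters in capitals, as examples of ERSE, of ERSE-II with CARE, and of CARE.
Hspa5: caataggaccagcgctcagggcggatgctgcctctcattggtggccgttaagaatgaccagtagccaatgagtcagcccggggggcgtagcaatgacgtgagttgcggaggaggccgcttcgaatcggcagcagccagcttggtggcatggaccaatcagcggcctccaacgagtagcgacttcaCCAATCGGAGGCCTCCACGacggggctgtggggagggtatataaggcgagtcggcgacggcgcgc
Herpud1: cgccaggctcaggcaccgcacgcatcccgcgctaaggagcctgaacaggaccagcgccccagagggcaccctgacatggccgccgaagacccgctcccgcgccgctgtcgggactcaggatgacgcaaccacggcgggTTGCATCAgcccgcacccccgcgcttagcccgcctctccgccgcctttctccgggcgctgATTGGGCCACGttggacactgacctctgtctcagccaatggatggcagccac
Chac1: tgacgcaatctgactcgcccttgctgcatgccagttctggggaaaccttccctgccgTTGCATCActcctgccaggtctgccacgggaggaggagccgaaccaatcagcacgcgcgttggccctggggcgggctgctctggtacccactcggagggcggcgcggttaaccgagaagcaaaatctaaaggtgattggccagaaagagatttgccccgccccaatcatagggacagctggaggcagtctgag

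Further ERSE matches, with up to 20 bases on either side, lie in Hsp90b1 (chr10:86705513-86705571, minus strand), Calr (chr8:84847055-84847113, minus strand), Canx (chr11:50325780-50325838, minus strand), Pdia6 (chr12:17266471-17266529, plus strand), Dnajc3 (chr14:118937807-118937865, plus strand), Creld2 (chr15:88819500-88819558, plus strand) and Syvn1 (chr19:6046512-6046570, plus strand). Further CARE matches lie in Atf3 (chr1:191183416-191183463, minus strand), Asns (chr6:7693210-7693252, minus strand), Fgf21 (chr7:45615602-45615649, minus strand) and Trib3 (chr2:152344028-152344057, minus strand), that of Trib3 just after the start. All are written 5′ to 3′ on the strand of the gene, with the match in capitals. They show the spacing between the CCAAT box and CCACG, also where the match reads on the other strand.
Hsp90b1: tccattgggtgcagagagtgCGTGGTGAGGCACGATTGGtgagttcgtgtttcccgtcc
Calr: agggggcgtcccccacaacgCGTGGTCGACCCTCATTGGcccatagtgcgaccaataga
Canx: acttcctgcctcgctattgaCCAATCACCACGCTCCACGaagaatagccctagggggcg
Pdia6: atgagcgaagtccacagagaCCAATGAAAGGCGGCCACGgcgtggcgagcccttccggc
Dnajc3: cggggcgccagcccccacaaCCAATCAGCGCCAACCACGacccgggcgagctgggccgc
Creld2: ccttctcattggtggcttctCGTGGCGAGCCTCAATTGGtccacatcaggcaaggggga
Syvn1: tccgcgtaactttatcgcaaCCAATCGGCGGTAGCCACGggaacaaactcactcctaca
Atf3: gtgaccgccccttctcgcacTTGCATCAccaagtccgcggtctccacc
Asns: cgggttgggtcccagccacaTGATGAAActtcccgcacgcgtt
Fgf21: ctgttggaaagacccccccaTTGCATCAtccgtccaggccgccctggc
Trib3: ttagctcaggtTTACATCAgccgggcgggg

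Per length of transcript, some of the chaperones were the most abundant of the genes, and the sensor kinases and several ATF4-side factors were low. In WT cells at day 6, Calr, the lumenal lectin chaperone calreticulin, was highest with 2250 ± 105 TPM (transcripts per 1e6, mean ± SD, n = 3, here and below). Hspa5, which encodes BiP, followed with 771 ± 81.1 TPM and the disulfide isomerase Pdia4 with 624 ± 129 TPM, and the spreads of these overlapped. At the other end stood the sensor kinase Ern1 (IRE1α) with 2.44 ± 0.958 TPM, the transcription factor Atf3 with 2.51 ± 0.7 TPM and the hormone Gdf15 with 0.895 ± 0.68 TPM. Fgf21 was lower still, with 0.0755 ± 0.131 TPM from 1 count in WT day 6. Other chaperones lay lower in WT day 6, Dnajc3 with 37.7 ± 7.42 TPM, under Xbp1 with 335 ± 14.5 TPM. Calr was also the highest in MIGA2-GFP day 6 (1997 ± 40.5 TPM) and in MIGA2-KO day 6 libraries (1719 ± 144 TPM).

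**Figure D1:**
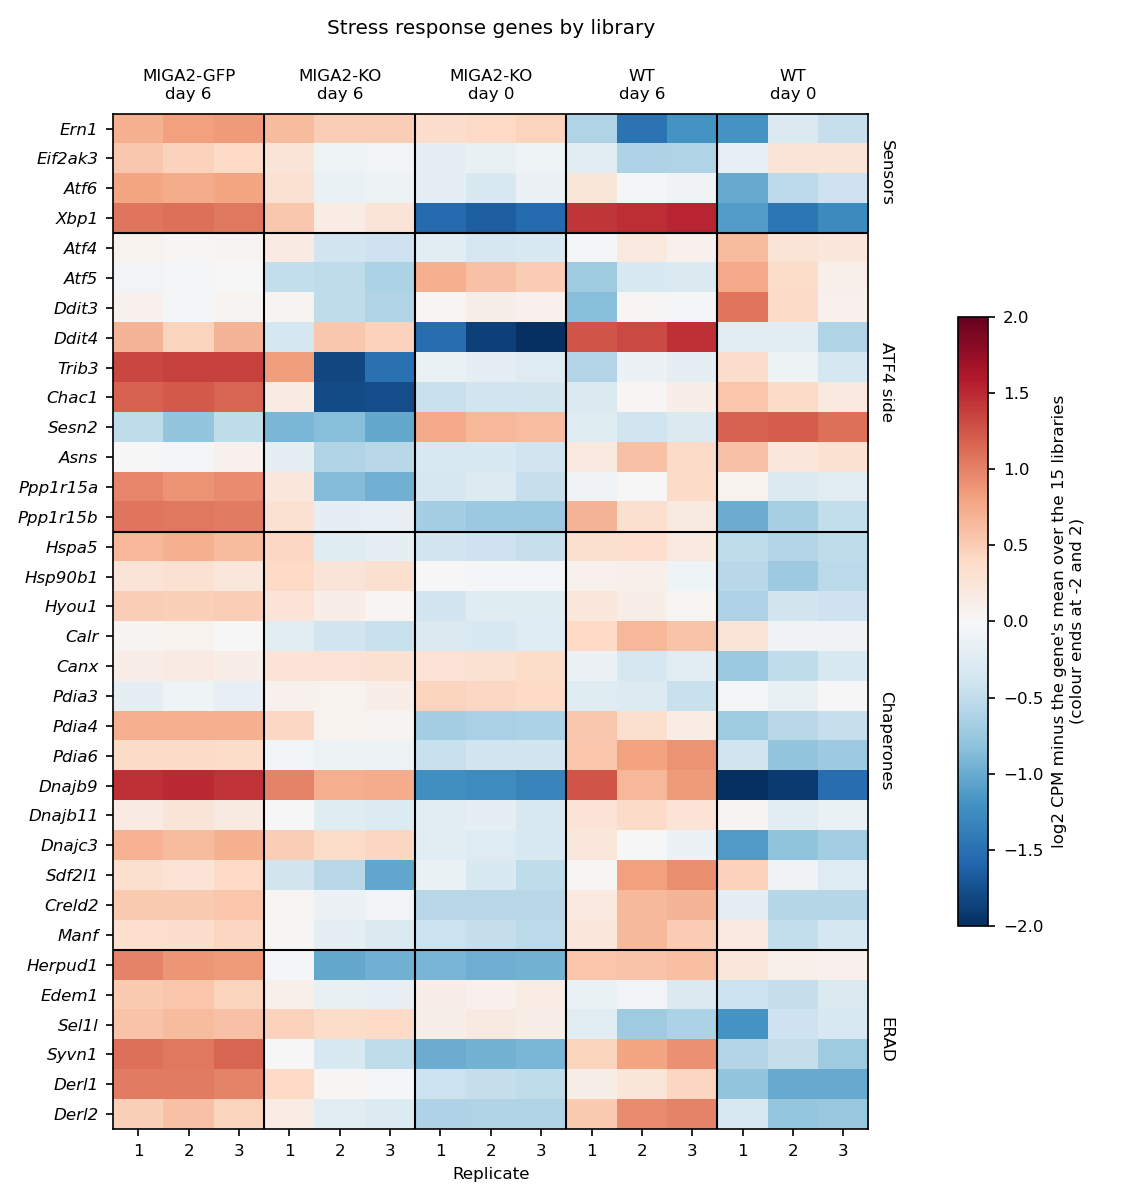
Levels of 34 of the genes in the 15 libraries, as log2 CPM minus the mean of the gene over all libraries (colour ends at -2 and 2), with genes grouped by role and columns ordered MIGA2-GFP day 6, MIGA2-KO day 6, MIGA2-KO day 0, WT day 6 and WT day 0. Xbp1 and Dnajb9 separate day 6 from day 0 in every group, and within MIGA2-KO day 6 replicate 1 differs from the other two in Trib3, Chac1 and Herpud1 (Derl3, Fgf21, Gdf15 and Atf3 are left out for low counts).

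Over differentiation of WT cells, with TMM scaling, 13 of 14 chaperone genes and 4 of 6 degradation genes were higher at day 6. The sensors and the ATF4 side had calls in both directions. Of the 37 genes tested, 21 rose and 5 fell, against 31.7% of all 12279 genes called higher and 33.1% called lower (edgeR quasi-likelihood test, adjusted p under 0.05). The median log2 fold change was 0.57 for the genes and -0.04 for all genes. The chaperone Pdia3 fell, and the other two degradation genes did not pass the test. Among the sensors 2 of 4 rose and 1 fell. On the ATF4 side 2 of 11 rose and 3 fell. The adipocyte markers rose as well (9 of 9), and their part in these changes was not tested.

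Among the sensors and transducers, Xbp1 (chromosome 11, 5520659 to 5525893, plus strand, GRCm38) had 479, 494 and 509 CPM in WT day 6, against 81.6, 64.9 and 73.5 CPM in WT day 0 libraries. The groups were far apart, with a log2 fold change of 2.75 ± 0.11 (adjusted p = 4.26e-11), where ± is the SE here and below. Atf6, the ER-membrane transcription factor, had 81.8, 67.5 and 65.6 CPM in WT day 6, against 34.4, 47.9 and 51.9 CPM in WT day 0 libraries. All day 6 libraries lay above those of day 0 (log2 fold change 0.68 ± 0.15, adjusted p = 0.00124). Eif2ak3, which encodes PERK, had 31.7, 24 and 24.3 CPM in WT day 6, against 32.8, 44.1 and 44.2 CPM in WT day 0 libraries. It was lower at day 6 (log2 fold change -0.60 ± 0.14, adjusted p = 0.00214), and replicate 1 of each group lay closest to the other group. Ern1 had 12.1, 6.63 and 8.06 CPM in WT day 6, against 8.06, 15.1 and 13.4 CPM in WT day 0 libraries, with overlapping groups (adjusted p = 0.0862).

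On the ATF4 side, Ddit4, an inhibitor of mTORC1 signalling, had 223, 231 and 256 CPM in WT day 6, against 80, 80.4 and 61.6 CPM in WT day 0 libraries. It rose without overlap (log2 fold change 1.68 ± 0.2, adjusted p = 3.87e-06), as did the phosphatase subunit Ppp1r15b, which constitutively reverses eIF2α phosphorylation (log2 fold change 1.11 ± 0.16, adjusted p = 1.72e-05). Sesn2, a leucine-binding restraint on mTORC1, had 37.2, 33.5 and 36 CPM in WT day 6, against 100.3, 102 and 94.2 CPM in WT day 0 libraries. Every day 6 library was under every day 0 library (log2 fold change -1.47 ± 0.1, adjusted p = 8.77e-09). The stress transcription factors Atf5 (log2 fold change -0.86 ± 0.15, adjusted p = 0.00014) and Ddit3, which encodes CHOP (log2 fold change -0.81 ± 0.25, adjusted p = 0.0113), fell as well. Atf4 had 205, 243 and 225 CPM in WT day 6, against 328, 252 and 246 CPM in WT day 0 libraries and was not called (adjusted p = 0.0932).

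Among the chaperones, Dnajb9 (ERdj4, a J-domain cochaperone of BiP) had 154, 103 and 117 CPM in WT day 6, against 12.6, 17.2 and 22.4 CPM in WT day 0 libraries. This was the largest change of the 14 (log2 fold change 2.84 ± 0.19, adjusted p = 6.09e-09). The disulfide isomerase Pdia6 had 692, 819 and 872 CPM in WT day 6, against 356, 271 and 284 CPM in WT day 0 libraries, again well apart (log2 fold change 1.39 ± 0.11, adjusted p = 5.61e-08). Smaller rises were those of Creld2, a disulfide-handling ER protein (log2 fold change 0.95 ± 0.13, adjusted p = 1.56e-05), Pdia4 (log2 fold change 0.91 ± 0.12, adjusted p = 8.85e-06) and Hspa5 (log2 fold change 0.81 ± 0.14, adjusted p = 0.000139). The fall of Pdia3, the isomerase that works with calreticulin and calnexin, was small (log2 fold change -0.26 ± 0.087, adjusted p = 0.016). In degradation the derlins Derl2 (log2 fold change 1.43 ± 0.16, adjusted p = 1.37e-06) and Derl1 (log2 fold change 1.21 ± 0.12, adjusted p = 5.58e-07) rose. So did Syvn1, the ubiquitin ligase HRD1 (log2 fold change 1.31 ± 0.13, adjusted p = 6.98e-07). Herpud1, an adaptor of the HRD1 complex, had 109, 110.2 and 112 CPM in WT day 6, against 86.6, 79.6 and 78.5 CPM in WT day 0 libraries and did not pass the test (adjusted p = 0.0559). Of the 10 tested genes with an ERSE or ERSE-II match, most of which are chaperones, 9 rose, against the 31.7% of all genes. Of the 6 with a CARE match 0 rose and 0 fell, against 31.7% and 33.1% of all genes. The counts of chaperones that rose depend on the scaling. TPM are scaled to the total of each library. From WT day 0 to day 6 mean TPM fell in Calr (2498 to 2250), Canx (329 to 251) and Pdia3 (1030 to 543). They also fell in Dnajb11 (121.8 to 102.5), Hsp90b1 (602 to 595), Hyou1 (55.5 to 52.4) and Sdf2l1 (82.2 to 77.3). They rose in Pdia6 (280 to 465), Dnajb9 (24.4 to 109), Pdia4 (526 to 624) and Hspa5 (694 to 771). Rises were also seen in Creld2 (100.3 to 122.8), Dnajc3 (32.1 to 37.7) and Manf (85.95 to 86.61). These differences in TPM were not tested. Scaling by library totals alone shifted the median of all genes by -0.391 on the log2 scale. Under it 13 of the 37 rose and 8 fell, of 2617 and 6211 among all genes. With a GC and length offset 21 rose and 9 fell, of 4129 and 4744 among all genes. Without the 3 libraries that stand apart 24 rose and 7 fell, of 4792 and 5068 among all genes.

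In MIGA2-KO cells, Xbp1, Dnajb9, Ddit4 and part of the chaperone and degradation genes rose as well. Day 6 against day 0 had 15 of the 37 higher and 3 lower, against 23.3% of all genes higher and 21.0% lower, with a median log2 fold change of 0.26 for the genes and 0.02 for all genes. Of the chaperones 8 of 14 rose, of the degradation genes 3 of 6 and of the sensors 1 of 4, and on the ATF4 side 3 of 11 rose and 2 fell. Without replicate 1 of MIGA2-KO day 6, 11 rose and 7 fell (20.4% and 19.4% of all genes; median 0.07), and on the ATF4 side 2 rose and 5 fell. Of the chaperones 6 then rose and 1 fell, and of the degradation genes 2 rose and 1 fell. Of the 18 genes called over all libraries 14 had the same call without this library, and the other 4 were Atf3, Hspa5, Pdia6 and Derl2. With a GC and length offset 15 rose and 7 fell, of 3051 and 3401 among all genes. Without the 3 libraries that stand apart 16 rose and 11 fell, of 3700 and 3560 among all genes. Of the 10 tested genes with an ERSE or ERSE-II match 6 rose and 0 fell, and 4 and 0 without replicate 1. Of the 6 with a CARE match 1 rose and 0 fell, and 0 and 2 without replicate 1. The shares of all genes were 23.3% and 21.0%, and 20.4% and 19.4% without replicate 1.

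Xbp1 had 256, 196 and 211 CPM in MIGA2-KO day 6, against 60.4, 56.6 and 60.3 CPM in MIGA2-KO day 0 libraries, and Dnajb9 had 129, 107 and 108 CPM in MIGA2-KO day 6, against 27.7, 27.1 and 25.7 CPM in MIGA2-KO day 0 libraries. Both were higher in all 3 day 6 libraries, Xbp1 with a log2 fold change of 1.90 ± 0.11 (adjusted p = 4.86e-09) and Dnajb9 with a log2 fold change of 2.10 ± 0.18 (adjusted p = 3.45e-07). Ddit4 had 72.7, 136 and 127 CPM in MIGA2-KO day 6, against 32.4, 25.4 and 22.3 CPM in MIGA2-KO day 0 libraries, again without overlap (log2 fold change 2.07 ± 0.21, adjusted p = 1.44e-06). Sesn2 (log2 fold change -1.61 ± 0.1, adjusted p = 1.1e-08) and Atf5 (log2 fold change -1.15 ± 0.15, adjusted p = 1.97e-05) fell in MIGA2-KO cells too. Rises were seen in Pdia4 (log2 fold change 0.85 ± 0.12, adjusted p = 4.02e-05), in Dnajc3, the J-domain protein p58IPK (log2 fold change 0.69 ± 0.11, adjusted p = 0.00019), and in Syvn1 (log2 fold change 0.69 ± 0.13, adjusted p = 0.000731). Hspa5 had 1624, 1025 and 1059 CPM in MIGA2-KO day 6, against 929, 915 and 877 CPM in MIGA2-KO day 0 libraries. Its call (log2 fold change 0.45 ± 0.14, adjusted p = 0.0183) was lost without MIGA2-KO day 6 replicate 1 (log2 fold change 0.20 ± 0.081, adjusted p = 0.0664). Atf3 had 8, 0.165 and 0.348 CPM in MIGA2-KO day 6, against 0.642, 0.306 and 0.243 CPM in MIGA2-KO day 0 libraries. The call (log2 fold change 2.80 ± 1, adjusted p = 0.038) rested on replicate 1 and turned to -0.62 without it (adjusted p = 0.483).

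Trib3, a pseudokinase induced by ATF4 and CHOP (chromosome 2, 152337422 to 152344032, minus strand, GRCm38), had 106, 16.7 and 21 CPM in MIGA2-KO day 6, against 53.7, 51.7 and 49.3 CPM in MIGA2-KO day 0 libraries. Replicate 1 was above and replicates 2 and 3 were below all day 0 libraries, and without replicate 1 Trib3 fell (log2 fold change -1.45 ± 0.2, adjusted p = 5.48e-05). Chac1, which breaks down glutathione, had 15.7, 4.04 and 4.09 CPM in MIGA2-KO day 6, against 10.2, 10.7 and 10.8 CPM in MIGA2-KO day 0 libraries. It likewise fell without replicate 1 (log2 fold change -1.38 ± 0.17, adjusted p = 1.77e-05). Ppp1r15a, the stress-induced eIF2α phosphatase subunit GADD34, had 24.6, 11.5 and 10.8 CPM in MIGA2-KO day 6, against 16.7, 17.4 and 15.2 CPM in MIGA2-KO day 0 libraries. The replicates split in the same way, and it fell without replicate 1 (log2 fold change -0.56 ± 0.16, adjusted p = 0.0134).

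The change over time in MIGA2-KO cells was set against that in WT cells with an interaction term. Of the 37 genes, 1 had a more positive change in MIGA2-KO cells and 8 a more negative one, against 13.7% and 13.6% of all genes. The median difference was -0.30 on the log2 scale for the genes and 0.02 for all genes. Eif2ak3 was the 1. The 8 were Xbp1, the chaperone genes Calr, Pdia6 and Dnajb9, and the degradation genes Derl1, Derl2, Syvn1 and Edem1, a lectin that sorts glycoproteins for degradation. Pdia6 had 453, 437 and 437 CPM in MIGA2-KO day 6, against 344, 361 and 362 CPM in MIGA2-KO day 0 libraries. Beside the WT values above, its changes differed by -1.07 on the log2 scale (adjusted p = 0.00018). Derl2 had 70.2, 54.5 and 52.2 CPM in MIGA2-KO day 6, against 41.1, 41.7 and 41.7 CPM in MIGA2-KO day 0 libraries, while it had 90.3, 122 and 126 CPM in WT day 6 and 51.1, 36.9 and 37.4 CPM in WT day 0 libraries. The changes of Derl2 differed by -0.93 (adjusted p = 0.00624), the smaller being that in MIGA2-KO cells. Those of Xbp1 differed by -0.85 (adjusted p = 0.000997), a rise in both lines that was smaller in MIGA2-KO cells. Eif2ak3 had 43.7, 34.5 and 35.4 CPM in MIGA2-KO day 6, against 32, 33.2 and 34.5 CPM in MIGA2-KO day 0 libraries. Its changes differed by 0.78 (adjusted p = 0.011), since it fell in WT cells and did not pass the test in MIGA2-KO cells (adjusted p = 0.319). On the ATF4 side 0 of 11 differed in edgeR, with differences between -0.39 and 1.72. At an unadjusted p under 0.05 it was 0 of 11 too, and in DESeq2 0 of the 10 with an adjusted p. Of the 10 tested genes with an ERSE or ERSE-II match 3 changed more negatively, and 6 without MIGA2-KO day 6 replicate 1. Of the 6 with a CARE match these counts were 0 and 3, beside 13.6% and 15.3% of all genes.

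These counts depended on single libraries and on the scaling. Without MIGA2-KO day 6 replicate 1, 2 changes were more positive and 17 more negative (14.5% and 15.3% of all genes; median -0.47). All 9 genes called over all libraries had the same call without it, with differences of -1.09 for Pdia6, -1.07 for Derl2, -0.97 for Xbp1 and 0.67 for Eif2ak3. On the ATF4 side the added ones included Trib3 (-1.17), Chac1 (-0.96), Ppp1r15a (-0.82) and Ppp1r15b (-0.56), all more negative, and Ddit4 (0.62), more positive. Without WT day 0 replicate 1, 14 were more negative and 2 more positive, of 2540 and 2661 among all genes. Without WT day 6 replicate 1, 2 were more positive, of 2429 among all genes. Leaving out MIGA2-KO day 0 replicate 2, MIGA2-KO day 6 replicate 2 or MIGA2-KO day 6 replicate 3 gave 4 more negative changes. Among all genes these were 1223, 1330 and 1254, in the same order. Leaving out MIGA2-KO day 0 replicate 3 gave 5, of 1311 among all genes. Without the 3 libraries that stand apart, 4 were more positive and 25 more negative, of 3915 and 3729 among all genes. Scaled by library totals, which moved the median of all genes by 0.370, 4 were more positive and 3 more negative. Among all genes 3852 were more positive and 812 more negative under this scaling. With a GC and length offset 4 were more positive and 13 more negative, of 2354 and 2198 among all genes.

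**Figure D2:**
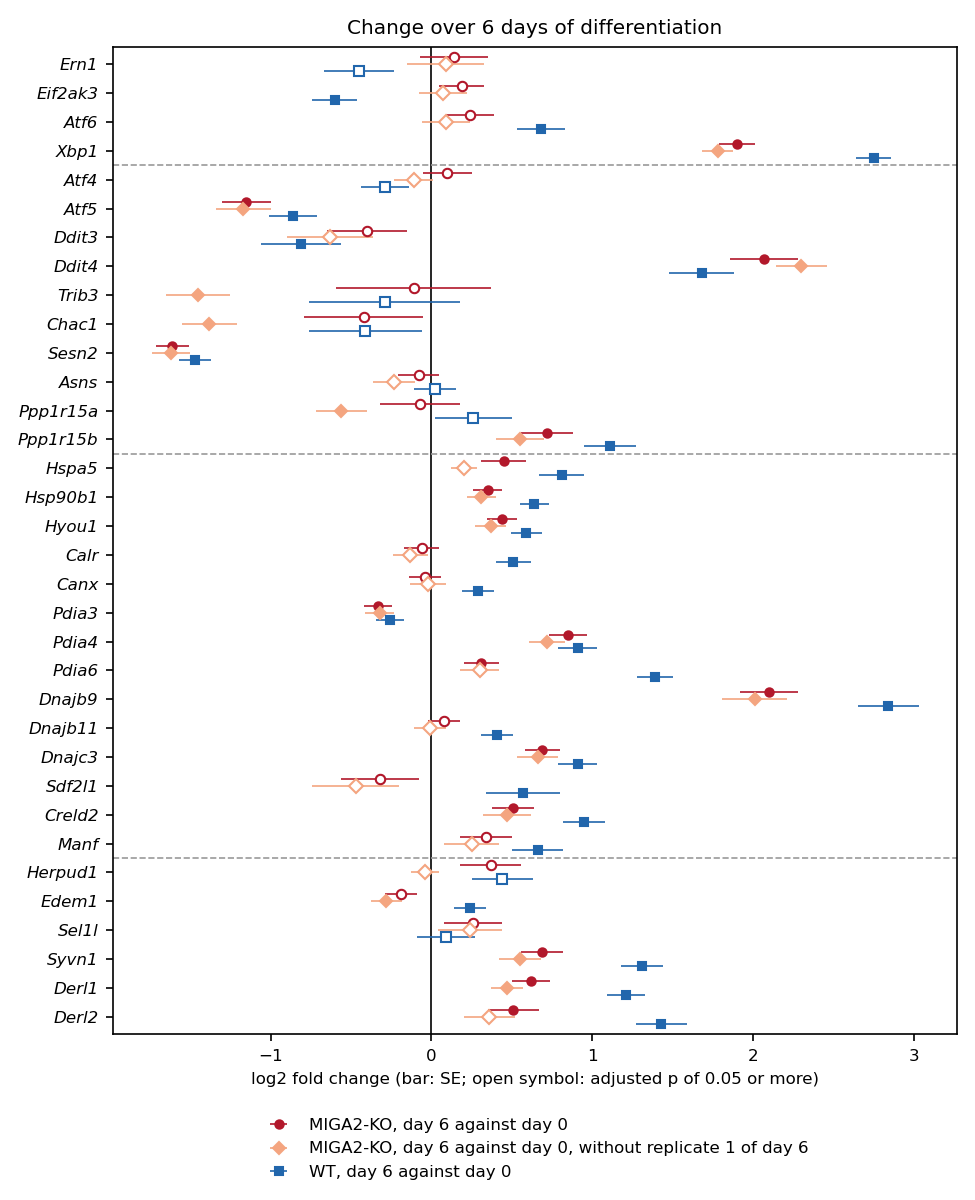
Log2 fold change of each gene at day 6 against day 0 (x axis, ± SE) in MIGA2-KO cells, in MIGA2-KO cells without replicate 1 of day 6, and in WT cells, with genes grouped by role and open symbols for an adjusted p of 0.05 or more. Dnajb9, Xbp1 and Ddit4 lie far to the right in both lines, Pdia6 and Derl2 lie further right in WT cells, and Trib3, Chac1 and Ppp1r15a move left once replicate 1 is left out (Derl3, Fgf21, Gdf15 and Atf3 are not drawn).

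Before differentiation, MIGA2-KO cells had lower levels of some ATF4-side genes than WT cells and higher levels of several chaperones. At day 0, 10 of the 37 genes were higher and 8 lower in MIGA2-KO cells, against 16.1% and 17.7% of all genes. The median log2 fold change was -0.15 for the genes and -0.03 for all genes. On the ATF4 side 4 of 11 were lower, and of the chaperones 5 of 14 were higher and 1 lower. Ddit4 had 32.4, 25.4 and 22.3 CPM in MIGA2-KO day 0, against 80, 80.4 and 61.6 CPM in WT day 0 libraries, and Asns, asparagine synthetase, had 85.8, 86.1 and 80.8 CPM in MIGA2-KO day 0, against 161, 124 and 132 CPM in WT day 0 libraries. MIGA2-KO libraries lay under WT libraries in both (log2 fold change -1.47 ± 0.21, adjusted p = 0.000145 for Ddit4 and log2 fold change -0.72 ± 0.13, adjusted p = 0.00108 for Asns). Atf4 itself was lower as well, with 181, 168 and 172 CPM in MIGA2-KO day 0, against 328, 252 and 246 CPM in WT day 0 libraries (log2 fold change -0.66 ± 0.15, adjusted p = 0.0039). Herpud1 (chromosome 8, 94386438 to 94395377, plus strand, GRCm38) had 38.6, 37.5 and 38.2 CPM in MIGA2-KO day 0, against 86.6, 79.6 and 78.5 CPM in WT day 0 libraries. It was lower without overlap (log2 fold change -1.10 ± 0.19, adjusted p = 0.000794). In the other direction, Ern1 had 23.6, 24.3 and 25.2 CPM in MIGA2-KO day 0, against 8.06, 15.1 and 13.4 CPM in WT day 0 libraries, higher in every MIGA2-KO library (log2 fold change 0.99 ± 0.21, adjusted p = 0.00272). Canx, the membrane-bound lectin chaperone calnexin, had 761, 772 and 804 CPM in MIGA2-KO day 0, against 371, 437 and 502 CPM in WT day 0 libraries, likewise without overlap (log2 fold change 0.83 ± 0.1, adjusted p = 6.35e-05). Dnajb9 (log2 fold change 0.62 ± 0.18, adjusted p = 0.0175), Hsp90b1, the ER-resident HSP90 (log2 fold change 0.58 ± 0.089, adjusted p = 3e-04), and Sel1l, the adaptor of HRD1 (log2 fold change 0.74 ± 0.18, adjusted p = 0.00605), were higher too. Leaving out MIGA2-KO day 0 replicate 1, 2 or 3 left 5 genes lower each time, of 1450, 1409 and 1456 among all genes. A GC and length offset gave 12 higher and 6 lower, of 2598 and 2118 among all genes. Without the 3 libraries that stand apart 12 were higher and 13 lower, of 3033 and 3080 among all genes. Of the 10 tested genes with an ERSE or ERSE-II match 3 were higher and 3 lower. Of the 6 with a CARE match 0 were higher and 2 lower, beside 16.1% and 17.7% of all genes.

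At day 6, MIGA2-KO cells were below WT cells in Xbp1, in the ATF4-side genes that passed the test and in part of the chaperone and degradation genes, and above them in Ern1, Sel1l and Canx. Over all libraries 7 of the 37 were higher and 14 lower, against 29.2% and 31.5% of all genes, with a median log2 fold change of -0.26 for the genes and -0.01 for all genes. Without MIGA2-KO day 6 replicate 1, 7 were higher and 23 lower, against 28.8% and 31.3% (median -0.58 for the genes and -0.02 for all genes). On the ATF4 side 9 of 11 were lower without this library and 4 of 11 with it. All 21 genes called over all libraries had the same call without it. Among the chaperones 8 of 14 were lower without and 6 with it, and in degradation 4 of 6 without and 3 with it. Without the 3 libraries that stand apart 7 were higher and 25 lower, of 4432 and 4641 among all genes. Scaled by library totals, which shifted the median of all genes by 0.249, 9 were higher and 12 lower. Among all genes 4901 were higher and 2801 lower under this scaling. With a GC and length offset 8 were higher and 13 lower, of 3902 and 3651 among all genes. The 9 adipocyte markers were all lower in MIGA2-KO than in WT at day 6, and their part in these differences was not tested.

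Xbp1 had 256, 196 and 211 CPM in MIGA2-KO day 6, against 479, 494 and 509 CPM in WT day 6 libraries. The groups were well apart (log2 fold change -1.16 ± 0.11, adjusted p = 9.25e-07), also without replicate 1 (log2 fold change -1.28 ± 0.1, adjusted p = 3.45e-07). Ern1, whose product splices the Xbp1 message, went the other way with 28.5, 25.9 and 25.9 CPM in MIGA2-KO day 6, against 12.1, 6.63 and 8.06 CPM in WT day 6 libraries (log2 fold change 1.58 ± 0.22, adjusted p = 3.79e-05). Eif2ak3 was higher too (log2 fold change 0.51 ± 0.15, adjusted p = 0.00806), and Atf6 had overlapping groups (adjusted p = 0.923). Ddit4 had 72.7, 136 and 127 CPM in MIGA2-KO day 6, against 223, 231 and 256 CPM in WT day 6 libraries, and Asns had 94.8, 70.6 and 73 CPM in MIGA2-KO day 6, against 123, 161 and 139.7 CPM in WT day 6 libraries. Each MIGA2-KO library was under each WT library for both (log2 fold change -1.08 ± 0.2, adjusted p = 0.000352 for Ddit4 and log2 fold change -0.83 ± 0.13, adjusted p = 0.000119 for Asns). Sesn2 was lower as well (log2 fold change -0.62 ± 0.1, adjusted p = 0.000145).

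Trib3 had 106, 16.7 and 21 CPM in MIGA2-KO day 6, against 39.2, 54.3 and 51.4 CPM in WT day 6 libraries, so replicate 1 was above and replicates 2 and 3 below every WT library. It was not called over all libraries (log2 fold change -0.02 ± 0.48, adjusted p = 0.98) and was lower without replicate 1 (log2 fold change -1.36 ± 0.2, adjusted p = 7.63e-05). Chac1 had 15.7, 4.04 and 4.09 CPM in MIGA2-KO day 6, against 11.4, 14.2 and 15.3 CPM in WT day 6 libraries. It too was called lower without replicate 1 (log2 fold change -1.74 ± 0.17, adjusted p = 1.92e-06) and not with it (log2 fold change -0.79 ± 0.37, adjusted p = 0.0788). The same library decided Ppp1r15a, which had 24.6, 11.5 and 10.8 CPM in MIGA2-KO day 6, against 20, 21 and 27.4 CPM in WT day 6 libraries. Over all libraries it missed the threshold (log2 fold change -0.54 ± 0.25, adjusted p = 0.07), and without replicate 1 it was lower (log2 fold change -1.03 ± 0.16, adjusted p = 0.000136). Atf3 had 92, 2 and 4 raw counts in MIGA2-KO day 6 libraries. It was not called over all of them (log2 fold change 0.18 ± 0.8, adjusted p = 0.855) and was lower without replicate 1 (log2 fold change -3.24 ± 0.5, adjusted p = 0.000107). Atf4 was likewise called lower without replicate 1 (log2 fold change -0.48 ± 0.12, adjusted p = 0.00425) and not with it (log2 fold change -0.27 ± 0.15, adjusted p = 0.129). These values are with TMM scaling. In TPM over all libraries, Atf4 averaged 246 (SD 58.9) in MIGA2-KO and 209 (SD 9.64) in WT day 6 libraries, a difference that was not tested.

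**Figure D3:**
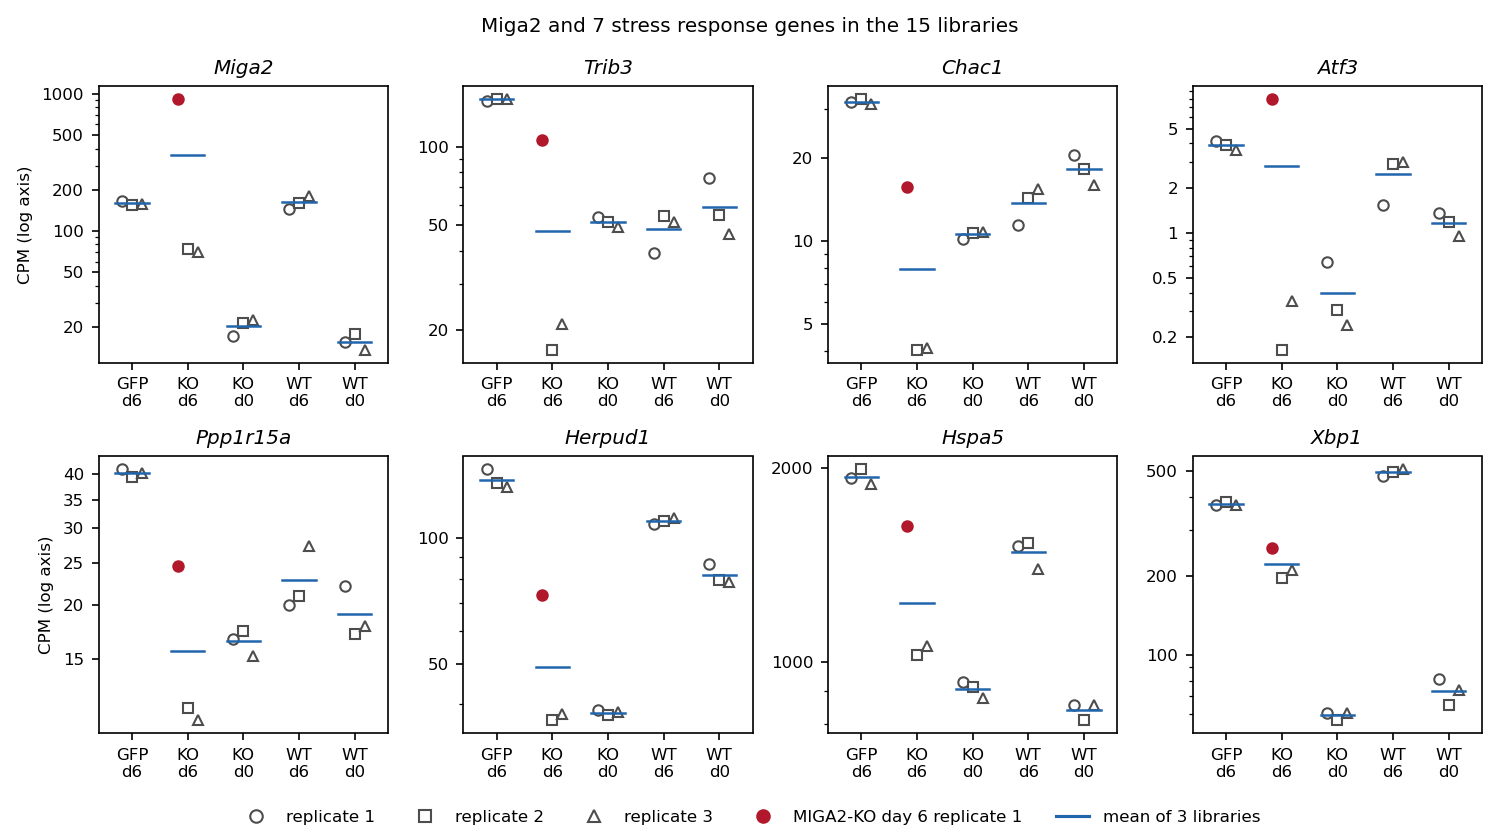
CPM of Miga2 and of 7 genes in each library (log axis); GFP d6 is MIGA2-GFP day 6, KO d6 and KO d0 are MIGA2-KO at day 6 and day 0, and WT d6 and WT d0 are WT cells. Circles, squares and triangles are replicates 1, 2 and 3, bars are group means, and the library labelled MIGA2-KO day 6 replicate 1 is red: it lies above the other two of its group in every gene shown.

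The chaperones moved in both directions. Sdf2l1, a partner of the J-domain chaperone ERdj3, had 19.6, 17.1 and 12.3 CPM in MIGA2-KO day 6, against 25.8, 44.5 and 48.1 CPM in WT day 6 libraries. It was lower without overlap (log2 fold change -1.27 ± 0.24, adjusted p = 0.000413). Calr had 1741, 1540 and 1489 CPM in MIGA2-KO day 6, against 2652, 3213 and 2999 CPM in WT day 6 libraries and Pdia6 had 453, 437 and 437 CPM in MIGA2-KO day 6, against 692, 819 and 872 CPM in WT day 6 libraries. Both were lower in every MIGA2-KO library (log2 fold change -0.89 ± 0.11, adjusted p = 1.32e-05 for Calr and log2 fold change -0.85 ± 0.11, adjusted p = 2.07e-05 for Pdia6). Canx, with 749, 764 and 768 CPM in MIGA2-KO day 6, against 572, 492 and 534 CPM in WT day 6 libraries, was higher (log2 fold change 0.51 ± 0.1, adjusted p = 0.000755). So were Pdia3 (log2 fold change 0.42 ± 0.087, adjusted p = 0.000921), Dnajc3 (log2 fold change 0.39 ± 0.11, adjusted p = 0.00862) and Hsp90b1 (log2 fold change 0.28 ± 0.089, adjusted p = 0.0132). Hspa5 had 1624, 1025 and 1059 CPM in MIGA2-KO day 6, against 1515, 1531 and 1391 CPM in WT day 6 libraries, with replicate 1 above all WT libraries. It passed the test without replicate 1 (log2 fold change -0.51 ± 0.083, adjusted p = 0.000186) and not with it (log2 fold change -0.26 ± 0.14, adjusted p = 0.125). In TPM over all libraries, Hspa5 averaged 911 (SD 250) in MIGA2-KO and 771 (SD 81.1) in WT day 6 libraries, which was not tested.

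In degradation, Herpud1 had 73, 36.5 and 37.9 CPM in MIGA2-KO day 6, against 109, 110.2 and 112 CPM in WT day 6 libraries. It was lower with replicate 1 (log2 fold change -1.17 ± 0.19, adjusted p = 0.00015) and without it (log2 fold change -1.57 ± 0.092, adjusted p = 2.1e-08). Syvn1 had 104, 84.7 and 73.6 CPM in MIGA2-KO day 6, against 142, 180.3 and 197 CPM in WT day 6 libraries, lower in every MIGA2-KO library (log2 fold change -0.99 ± 0.13, adjusted p = 2.72e-05), and Derl2 was lower too (log2 fold change -0.93 ± 0.16, adjusted p = 0.000151). Sel1l, which forms a complex with HRD1, went the other way with 364, 343 and 347 CPM in MIGA2-KO day 6, against 227, 162 and 171 CPM in WT day 6 libraries (log2 fold change 0.91 ± 0.18, adjusted p = 0.000522). Of the 10 tested genes with an ERSE or ERSE-II match, 6 were lower and 3 higher at day 6, against 31.5% and 29.2% of all genes. Without replicate 1, 7 were lower and 3 higher (31.3% and 28.8%). Of the 6 with a CARE match 2 were lower over all libraries, a share near that of all genes, and 5 without replicate 1.

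Cells labelled MIGA2-GFP differed from WT cells at day 6 by higher Ern1, Eif2ak3 and Atf6 and by 4 of 6 higher degradation genes. On the ATF4 side Trib3, Chac1, Ppp1r15a and Ppp1r15b were higher, and Ddit4, Asns and Sesn2 were lower. Of the 37 genes, 18 were higher and 6 lower, against 16.5% and 18.9% of all genes, with a median log2 fold change of 0.38 for the genes and 0.00 for all genes. Of the sensors and transducers 3 of 4 were higher and 1 (Xbp1) lower, and of the ATF4 side 4 of 11 were higher and 3 lower. Of the chaperones 6 of 14 were higher and 2 lower, and of the degradation genes the other two did not pass the test. Of the 9 adipocyte markers, 5 were lower, and their part was not tested. Trib3 had 149, 153 and 152 CPM in MIGA2-GFP day 6, against 39.2, 54.3 and 51.4 CPM in WT day 6 libraries, and Chac1 had 31.7, 32.7 and 31.2 CPM in MIGA2-GFP day 6, against 11.4, 14.2 and 15.3 CPM in WT day 6 libraries. MIGA2-GFP libraries were above all WT libraries in both (log2 fold change 1.65 ± 0.48, adjusted p = 0.0169 for Trib3 and log2 fold change 1.22 ± 0.35, adjusted p = 0.0152 for Chac1). Ppp1r15a, with 41.2, 39.4 and 40.4 CPM in MIGA2-GFP day 6, against 20, 21 and 27.4 CPM in WT day 6 libraries, was also higher without overlap (log2 fold change 0.82 ± 0.24, adjusted p = 0.0165). Ppp1r15b was higher too (log2 fold change 0.65 ± 0.15, adjusted p = 0.00547). Through the joint fit, the SE and p of these genes include the spread of MIGA2-KO day 6 replicate 1. Ddit4 had 148, 126 and 149 CPM in MIGA2-GFP day 6, against 223, 231 and 256 CPM in WT day 6 libraries. It was lower (log2 fold change -0.74 ± 0.2, adjusted p = 0.0105). Asns averaged 108.5 CPM in MIGA2-GFP and 141.3 CPM in WT day 6 libraries, and Sesn2 averaged 29.1 and 35.6 CPM.

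Ern1 had 30.2, 32.5 and 33.3 CPM in MIGA2-GFP day 6, against 12.1, 6.63 and 8.06 CPM in WT day 6 libraries, and Eif2ak3 had 53.4, 50.5 and 48.5 CPM in MIGA2-GFP day 6, against 31.7, 24 and 24.3 CPM in WT day 6 libraries. Both groups were separate in each (log2 fold change 1.84 ± 0.22, adjusted p = 5.97e-05 for Ern1 and log2 fold change 0.93 ± 0.15, adjusted p = 0.000363 for Eif2ak3), and Atf6 was higher too (log2 fold change 0.72 ± 0.15, adjusted p = 0.00276). Xbp1, with 372, 382 and 370.3 CPM in MIGA2-GFP day 6, against 479, 494 and 509 CPM in WT day 6 libraries, was lower in every MIGA2-GFP library (log2 fold change -0.40 ± 0.11, adjusted p = 0.0113). Among the chaperones, Dnajc3 (log2 fold change 0.64 ± 0.11, adjusted p = 0.000848) and Dnajb9 (log2 fold change 0.52 ± 0.17, adjusted p = 0.0313) were higher. So was Hspa5, with 1927, 1992 and 1890 CPM in MIGA2-GFP day 6, against 1515, 1531 and 1391 CPM in WT day 6 libraries (log2 fold change 0.39 ± 0.14, adjusted p = 0.0441). Calr, with 2098, 2125 and 2034 CPM in MIGA2-GFP day 6, against 2652, 3213 and 2999 CPM in WT day 6 libraries, was lower (log2 fold change -0.50 ± 0.11, adjusted p = 0.00357). In degradation, Sel1l had 394, 410 and 398 CPM in MIGA2-GFP day 6, against 227, 162 and 171 CPM in WT day 6 libraries, and Derl1 had 577, 582 and 566 CPM in MIGA2-GFP day 6, against 310.1, 338 and 382 CPM in WT day 6 libraries. The MIGA2-GFP libraries were above all WT libraries in both (log2 fold change 1.10 ± 0.18, adjusted p = 0.000442 for Sel1l and log2 fold change 0.74 ± 0.12, adjusted p = 0.000429 for Derl1), and Edem1 was higher as well (log2 fold change 0.67 ± 0.098, adjusted p = 0.000218).

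Without WT day 6 replicate 2, 11 genes were higher in MIGA2-GFP cells and 3 lower, of 1229 and 1528 among all genes. Without WT day 6 replicate 3, 3 were lower, of 1793 among all genes. Scaled by library totals (median of all genes shifted by 0.178), 22 were higher and 2 lower, of 3228 and 1411 among all genes. With a GC and length offset 24 were higher and 4 lower, of 2382 and 2546 among all genes. Of the genes, 23 were higher and 9 lower without the 3 libraries that stand apart (3837 and 3774 among all genes). Over all libraries, 4 of the 10 tested genes with an ERSE or ERSE-II match were higher and 2 lower. Of the 6 with a CARE match 3 were higher and 1 lower, beside 16.5% and 18.9% of all genes.

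Set against MIGA2-KO cells at day 6, the libraries labelled MIGA2-GFP were higher in most of the genes. This comparison shares its libraries with the 2 comparisons against WT cells. Of the 37 genes, 26 were higher and 1 lower, against 25.4% and 22.5% of all genes, with a median log2 fold change of 0.52 for the genes and 0.01 for all genes. Without MIGA2-KO day 6 replicate 1, 29 were higher and 1 lower (25.6% and 23.0%; median 0.62), and all 27 genes called over all libraries had the same call. Higher were 33 and lower 2 without the 3 libraries that stand apart, of 4217 and 3991 among all genes. The 1 lower gene was Pdia3 (log2 fold change -0.24 ± 0.087, adjusted p = 0.0347), which lost its call when MIGA2-KO day 6 replicate 2 or 3 or any MIGA2-GFP replicate was left out. Higher were 3 of 4 sensors, 7 of 11 ATF4-side genes, 10 of 14 chaperones and 5 of 6 degradation genes. All 9 adipocyte markers were higher too, and their part was not tested.

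Large differences between MIGA2-GFP and MIGA2-KO cells were those of Chac1 (log2 fold change 2.01 ± 0.36, adjusted p = 0.000445) and Trib3 (log2 fold change 1.66 ± 0.48, adjusted p = 0.0108) among the ATF4 targets. Without MIGA2-KO day 6 replicate 1 they were 2.97 for Chac1 and 3.01 for Trib3 on the log2 scale. Ppp1r15a was higher with replicate 1 (log2 fold change 1.37 ± 0.24, adjusted p = 0.000413) and without it (log2 fold change 1.85 ± 0.16, adjusted p = 1.07e-06). Herpud1 had 147, 136 and 133 CPM and Syvn1 had 225, 217 and 233 CPM in MIGA2-GFP libraries, above all MIGA2-KO values given before. The log2 fold changes were 1.50 for Herpud1 (adjusted p = 3.09e-05) and 1.37 for Syvn1 (adjusted p = 2.99e-06), and 1.90 and 1.51 without replicate 1. Hspa5 (log2 fold change 0.65 ± 0.14, adjusted p = 0.00176), Xbp1 (log2 fold change 0.76 ± 0.11, adjusted p = 6.39e-05) and Atf6 (log2 fold change 0.74 ± 0.15, adjusted p = 0.00119) were higher by less, and without replicate 1 these were 0.89, 0.88 and 0.89. Of the 6 genes with a CARE match 4 were higher, and 6 without replicate 1, against 25.4% and 25.6% of all genes. Of the 10 with an ERSE or ERSE-II match 7 were higher with or without it.

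**Figure D4:**
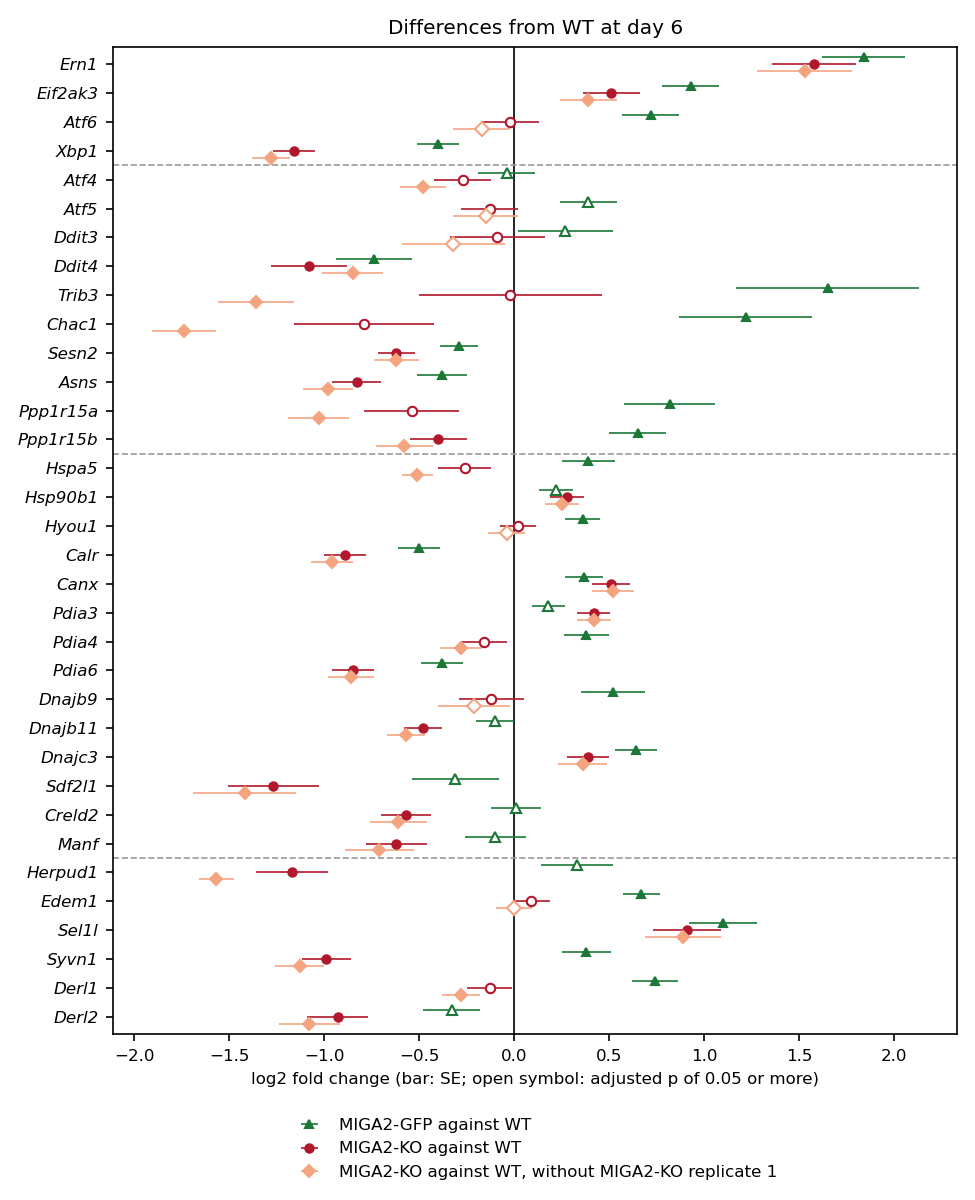
Log2 fold change of each gene at day 6 against WT cells (x axis, ± SE) for MIGA2-GFP, for MIGA2-KO and for MIGA2-KO without replicate 1, with genes grouped by role and open symbols for an adjusted p of 0.05 or more. MIGA2-GFP and MIGA2-KO lie on the same side of 0 in Ern1, Sel1l and Calr, and on opposite sides in Trib3, Chac1, Ppp1r15a and Herpud1. With replicate 1, Trib3 of MIGA2-KO lies next to 0, and Trib3, Chac1 and Ppp1r15a of MIGA2-KO are not called. Herpud1 is not called for MIGA2-GFP (Derl3, Fgf21, Gdf15 and Atf3 are not drawn).

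The secreted hormones were close to the limit of detection. Fgf21 had 15, 8 and 17 raw counts in MIGA2-GFP day 6, 10, 0 and 0 in MIGA2-KO day 6, and 0, 0 and 0 in MIGA2-KO day 0 libraries. It had 1, 0 and 0 in WT day 6 and 0, 6 and 4 in WT day 0 libraries. The summed 40 counts of MIGA2-GFP against the 1 count of WT at day 6 gave a depth-corrected ratio of 35.8 (exact 95% counting interval 6.07 to 1450), and edgeR called it (adjusted p = 0.0187). Gdf15, a stress hormone of the TGF-β superfamily, had 32, 23 and 32 raw counts in MIGA2-GFP day 6, 13, 0 and 1 in MIGA2-KO day 6, and 3, 6 and 4 in MIGA2-KO day 0 libraries. It had 6, 3 and 15 in WT day 6 and 11, 16 and 8 in WT day 0 libraries. It was higher in MIGA2-GFP than in MIGA2-KO cells (log2 fold change 2.61 ± 0.7, adjusted p = 0.0068). The summed 87 counts of MIGA2-GFP against the 14 of MIGA2-KO gave a depth-corrected ratio of 6.18 (exact 95% counting interval 3.49 to 11.8). Without MIGA2-KO day 6 replicate 1, 1 count was left in MIGA2-KO, the ratio was 58.2 (10.2 to 2320) and edgeR called it too (adjusted p = 0.000132). Gdf15 did not pass the test against WT cells (log2 fold change 1.70 ± 0.64, adjusted p = 0.0514). In both hormones the single MIGA2-KO day 6 library with more than 1 count was replicate 1.

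Other genes of these pathways were taken from 5 lists outside the 38. Of 45 tested further ATF4 targets, 3 were higher and 24 lower in MIGA2-KO than in WT at day 6, against 29.2% and 31.5% of all genes (median -0.49). Without MIGA2-KO day 6 replicate 1, 2 were higher and 26 lower (28.8% and 31.3% of all genes). Mthfd2, a mitochondrial enzyme of folate metabolism, averaged 43.7 ± 14.9 CPM in MIGA2-KO and 353 ± 5.45 CPM in WT cells (log2 fold change -3.02 ± 0.17, adjusted p = 9.21e-09, with a log2 fold change of -3.33 without replicate 1). The glutamine carrier Slc1a5 averaged 408 ± 18.7 CPM in MIGA2-KO and 1566 ± 191 CPM in WT cells (log2 fold change -1.94 ± 0.11, adjusted p = 8.88e-09, with a log2 fold change of -1.97 without replicate 1). The alanine aminotransferase Gpt2 was lower as well (log2 fold change -2.24 ± 0.16, adjusted p = 8.95e-08, with a log2 fold change of -2.51 without replicate 1). Over time in WT cells 18 of these 45 rose and 14 fell, shares near the 31.7% and 33.1% of all genes, and the list had a median of 0.06. Slc1a5 was among those that rose (log2 fold change 4.62 ± 0.12, adjusted p = 4.24e-13). In MIGA2-GFP against WT cells at day 6, 9 were higher and 9 lower, against 16.5% and 18.9% of all genes. Aldh1l2, another mitochondrial folate enzyme, averaged 43.5 ± 1.88 CPM in MIGA2-GFP and 11 ± 4.58 CPM in WT cells (log2 fold change 1.98 ± 0.29, adjusted p = 0.000223). Against MIGA2-KO cells 27 were higher and 4 lower in MIGA2-GFP, and 30 and 3 without replicate 1, against 25.4% and 22.5%, and 25.6% and 23.0%, of all genes. Slc7a5, a carrier of large neutral amino acids, averaged 283 ± 6.05 CPM in MIGA2-GFP and 51.1 ± 25.1 CPM in MIGA2-KO cells (log2 fold change 2.47 ± 0.23, adjusted p = 1.64e-06, with a log2 fold change of 2.95 without replicate 1).

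Of 14 genes of the eIF2 machinery, 4 were higher and 9 lower in MIGA2-KO than in WT at day 6, against 29.2% and 31.5% of all genes, and 4 and 8 without replicate 1. Oma1, the mitochondrial protease that releases DELE1 to the eIF2α kinase HRI, averaged 12.8 ± 0.904 CPM in MIGA2-KO and 30.6 ± 1.64 CPM in WT cells (log2 fold change -1.26 ± 0.13, adjusted p = 1.66e-06, with a log2 fold change of -1.30 without replicate 1). It rose over time in WT cells (log2 fold change 2.15 ± 0.13, adjusted p = 1.82e-09). In MIGA2-GFP against WT cells 6 of the 14 were lower, against 18.9% of all genes, Eif2s1, which encodes eIF2α, among them (log2 fold change -0.80 ± 0.11, adjusted p = 0.000108). Of 24 further degradation genes, 13 rose and 1 fell over time in WT cells, against 31.7% and 33.1% of all genes. In MIGA2-KO against WT cells at day 6, 4 of the 24 were higher and 10 lower, and 4 and 11 without replicate 1, beside the shares of all genes given for that comparison. The ubiquitin-conjugating enzyme Ube2j1 averaged 31.4 ± 4.69 CPM in MIGA2-KO and 78.3 ± 5.87 CPM in WT cells (log2 fold change -1.32 ± 0.12, adjusted p = 5.44e-07, with a log2 fold change of -1.43 without replicate 1).

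Of 34 further folding genes, 11 rose and 17 fell over time in WT cells, against 31.7% and 33.1% of all genes, so the share that rose was near that of all genes. The 13 of 14 chaperone genes that rose with TMM scaling stand beside this, and the difference between the lists was not tested. The calcium-binding ER protein Rcn1 fell (log2 fold change -1.83 ± 0.087, adjusted p = 1.79e-10). In MIGA2-GFP against MIGA2-KO cells 11 of the 34 were higher and 4 lower, against 25.4% and 22.5% of all genes, and 12 and 5 without replicate 1. Ero1l (ERO1α), the oxidase that reoxidises disulfide isomerases, had 619, 636 and 622 CPM in MIGA2-GFP and 227, 51.1 and 58.9 CPM in MIGA2-KO libraries (log2 fold change 2.48 ± 0.41, adjusted p = 0.000225). Replicate 1 of MIGA2-KO was the highest of its group and still under all MIGA2-GFP libraries, and without it the log2 fold change was 3.51 ± 0.16 (adjusted p = 4.09e-09). Of 27 tested ER stress factors, 7 were higher and 8 lower in MIGA2-KO than in WT at day 6, shares near the 29.2% and 31.5% of all genes, and 6 and 10 without replicate 1. Single genes of this list with small p-values were Bcap31, an ER membrane chaperone, which was lower (log2 fold change -1.47 ± 0.14, adjusted p = 1.33e-06, with a log2 fold change of -1.61 without replicate 1), and Creb3l1, an ER-anchored transcription factor, which was higher (log2 fold change 1.73 ± 0.16, adjusted p = 7.64e-07, with a log2 fold change of 1.92 without replicate 1).

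Set side by side, the roles had different counts in the comparisons. In WT cells over time, 13 of 14 chaperones rose with TMM scaling, beside 2 of 11 ATF4-side genes and 2 of 4 sensors and transducers (Xbp1 and Atf6). Of all genes 31.7% rose. Those that fell were 1 chaperone, 3 ATF4-side genes and 1 sensor, beside 33.1% of all genes. With library totals only, 13 of the 37 genes rose and 8 fell, of 2617 and 6211 among all genes. In MIGA2-KO against WT cells at day 6, 8 of 14 chaperones and 9 of 11 ATF4-side genes were lower without MIGA2-KO replicate 1. Of the 4 sensors and transducers 1 was lower, the transcription factor Xbp1, beside 31.3% of all genes. In the other direction 4 chaperones, 0 ATF4-side genes and 2 sensors (Ern1 and Eif2ak3) were higher, beside 28.8% of all genes. Over all libraries 6 chaperones, 4 ATF4-side genes and Xbp1 were lower, beside 31.5% of all genes. In MIGA2-GFP against MIGA2-KO cells, without MIGA2-KO day 6 replicate 1, 10 of 14 chaperones and 9 of 11 ATF4-side genes were higher. So were 3 of 4 sensors and transducers, Xbp1 among them, beside 25.6% of all genes, and 1 chaperone was lower. Over all libraries 10 chaperones, 7 ATF4-side genes and 3 sensors were higher, beside 25.4% of all genes. Differences between the roles were not tested.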

How the data were processed

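RNA of 15 libraries, 3 in each of 5 groups, was isolated with RNeasy columns and made into TruSeq stranded libraries, per the labels. Reads were handled with bcl2fastq 2.19, Trimmomatic, STAR 2.5.4b, featureCounts and edgeR on GRCm38.p5, per the submitters' processing notes; the annotation release, strand setting and treatment of multimapping reads were not given there, so reads of overlapping or antisense genes cannot be told apart. The deposited values used are whole-number counts per Ensembl gene. Of 25700 identifiers, 25587 matched a symbol in GENCODE release M21 of mouse and 113 did not.

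From the counts, edgeR 4.0.16 (R 4.3.3, limma 3.58.1) kept 12279 genes (filterByExpr, minimum count 10, minimum total 15), scaled them by TMM and fitted all 15 libraries with 1 term per group (common biological coefficient of variation 15.96%). Each of 7 contrasts was tested with the quasi-likelihood F test, with Benjamini-Hochberg adjustment over the whole table and a threshold of 0.05. The SE of a log2 fold change is its size divided by the square root of F. CPM use the TMM-scaled totals, and TPM use exon lengths of the annotation. The script was tested on simulated data. Alternatives were RLE size factors, library totals only, DESeq2 1.42.0, no filter, only the groups compared, a GC and length offset, a replicate block, and leaving out libraries.

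The members, their roles and the other gene lists were chosen with earlier results of these data known. In each comparison up to 4 called genes of a role with the largest change, and up to 3 of each other list with the smallest adjusted p, were taken for naming; other genes named were chosen after their values were seen. Replicate numbers did not pair the libraries: deviations of same-numbered libraries from their group means correlated between -0.723 and 0.125. Comparisons that share a group share its libraries. Promoters come from RefSeq (GRCm38.p6).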

Additional observations from a re-analysis of the deposited data

Results flagged for a closer look

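For 9 of the 37 genes tested the change from day 0 to day 6 differed between MIGA2-KO and WT cells by the interaction term of the edgeR fit. In each case the test was on the difference itself, with 3 libraries in each of 4 groups. The change in MIGA2-KO cells was more positive for 1 gene and more negative for 8, beside 13.7% and 13.6% of all genes. With library totals only, 4 were more positive and 3 more negative, of 3852 and 812 among all genes. Pdia6 (a disulfide isomerase) changed by 0.31 in MIGA2-KO and by 1.39 in WT cells on the log2 scale, a difference of -1.07 (adjusted p = 0.00018, with a difference of -1.09 without MIGA2-KO day 6 replicate 1). For Derl2 (a derlin) the log2 fold changes were 0.51 in MIGA2-KO and 1.43 in WT cells, with a difference of -0.93 (adjusted p = 0.00624, with a difference of -1.07 without that library). Xbp1 (the transcription factor) had 1.90 in MIGA2-KO and 2.75 in WT cells, with a difference of -0.85 (adjusted p = 0.000997, with a difference of -0.97 without that library). Dnajb9 (a cochaperone of BiP) had 2.10 in MIGA2-KO and 2.84 in WT cells, with a difference of -0.74 (adjusted p = 0.0409, with a difference of -0.83 without that library). Of the ubiquitin ligase complex, Syvn1 (the ligase HRD1) had 0.69 in MIGA2-KO and 1.31 in WT cells, with a difference of -0.62 (adjusted p = 0.0244, with a difference of -0.77 without that library). Derl1 (a derlin) had 0.62 in MIGA2-KO and 1.21 in WT cells, with a difference of -0.59 (adjusted p = 0.0186, with a difference of -0.74 without that library). For Calr (calreticulin) the changes were -0.06 in MIGA2-KO and 0.51 in WT cells, with a difference of -0.56 (adjusted p = 0.0158, with a difference of -0.63 without that library). Edem1 (a glycoprotein lectin) had -0.19 in MIGA2-KO and 0.24 in WT cells, with a difference of -0.43 (adjusted p = 0.0315, with a difference of -0.52 without that library). Eif2ak3 (PERK) was the gene with the more positive change in MIGA2-KO cells, with 0.19 in MIGA2-KO and -0.60 in WT cells and a difference of 0.78 (adjusted p = 0.011, with a difference of 0.67 without that library). Adipocyte marker levels differed between the same groups, and their part in these differences was not tested.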

How the results depend on the processing

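Of 250 results compared over the alternatives, 3642 values kept their direction and their side of the threshold, 237 kept the direction without passing it and 12 reversed. Counts below are of members, first higher, then lower, where both are given, and causes were not tested except that leaving out libraries also leaves fewer samples. With library totals only, WT cells over time had 13 higher and 8 lower, of 2617 and 6211 among all genes. MIGA2-GFP against WT cells at day 6 had 2 lower, of 1411 among all genes. The change in MIGA2-KO minus that in WT had 4 higher and 3 lower, of 3852 and 812 among all genes. Over time in WT cells Canx was at -0.11 and Edem1 at -0.15 with library totals only. The median of all genes shifted by -0.391 over time in WT cells, -0.121 between MIGA2-KO and WT at day 0, 0.249 between them at day 6, 0.178 between MIGA2-GFP and WT and 0.370 in the difference of changes. With a GC and length offset, 9 were lower over time in WT cells, 7 over time in MIGA2-KO cells, and 4 higher and 13 lower in the difference of changes; Sdf2l1 over time in WT cells was at -0.31, Creld2 in MIGA2-KO against WT cells at day 6 at 0.33, and Atf5 and Sesn2 in MIGA2-GFP against MIGA2-KO cells at -0.06 and -0.05. The replicate block gave 20 and 5 over time in WT cells, 13 and 3 over time in MIGA2-KO cells, 9 and 6 in MIGA2-KO against WT cells at day 0, 7 and 14 at day 6, 17 and 4 in MIGA2-GFP against WT cells, 26 and 0 against MIGA2-KO cells, and 1 and 6 in the difference of changes; the numbers did not pair the libraries. The block with the offset gave 9 lower over time in WT cells, 5 over time in MIGA2-KO cells, 3 in MIGA2-GFP against WT cells, and 3 higher and 13 lower in the difference of changes, with Sdf2l1 at -0.31, Creld2 at 0.33, Atf5 at -0.05 and Sesn2 at -0.05. Without a filter, 5 were lower in MIGA2-KO against WT cells at day 0 and 0 in MIGA2-GFP against MIGA2-KO cells, and with only the groups compared 3 were lower over time in WT cells, 2 in MIGA2-GFP against MIGA2-KO cells and 5 in the difference of changes. Without the 3 libraries that stand apart, 11 were lower over time in MIGA2-KO cells, 13 in MIGA2-KO against WT cells at day 0, 25 at day 6, 2 in MIGA2-GFP against MIGA2-KO cells, and 4 higher and 25 lower in the difference of changes, and Atf3 over time in MIGA2-KO cells was at -0.62. Leaving out 1 library at a time gave 18 to 20 higher and 4 to 6 lower over time in WT cells, 11 to 15 and 3 to 7 over time in MIGA2-KO cells, 8 to 10 and 5 to 8 in MIGA2-KO against WT cells at day 0, 6 to 7 and 13 to 23 at day 6, 11 to 16 and 3 to 7 in MIGA2-GFP against WT cells, 22 to 29 and 0 to 1 against MIGA2-KO cells, and 1 to 2 and 4 to 17 in the difference of changes, with Atf3 over time in MIGA2-KO cells between -0.62 and 3.37. Depth limits Atf3, Fgf21 and Gdf15, which had under 100 counts in every day 6 library.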
